A study of Arabidopsis thaliana with 116 samples.

Results

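Control shoots of Arabidopsis thaliana sampled 2 h after seedlings had been moved to a fresh plate were compared with control shoots sampled at 0 h. The libraries were chosen by their labels alone, 3 at 2 h and 4 at 0 h, which makes 7 of the 116 libraries of the series. All seedlings were of the Col-0 strain and had grown 5 days over nylon mesh on upright agar plates, about 30 plants in a row, with 16 h of light at 22°C and 8 h of dark at 19°C. At transfer the mesh with its plants was lifted to a plate of the standard medium with no hormone added, the mock arm of an experiment that also tested abscisic acid (ABA) and salicylic acid (SA). Shoots were cut from roots at harvest, and each library holds the poly(A) RNA of many pooled seedlings. A shoot sample of whole seedlings mixes all cell types, so fewer cells of a type and less RNA per cell cannot be told apart. No untransferred seedlings of the 2 h time are among these libraries. The transfer itself, the 2 h that passed, seedling age and time of day therefore cannot be told apart in this comparison.

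The 3 control shoots of 1 h were used beside them as the closest time point. These 10 libraries carry the same library-name prefix, NSW. They held between 15717921 and 78889733 counts per library, from 28924099 to 78889733 at 0 h and from 25734864 to 57610684 at 2 h. The tissue label was checked with RBCS1A, LHCB1.1, LHCB1.3, RCA and LHCB3, genes of photosynthetic cells, whose levels summed to between 58680 and 67262 CPM (counts scaled to library size, per 1e6 counts) in the 0 h and 2 h shoots and to between 19.7 and 46.2 CPM in control roots of the same times. A list of 16 root genes summed to between 14.8 and 29.3 CPM at 0 h and between 22.1 and 25.5 CPM at 2 h, against 716 to 1206 CPM in control roots, and none of its 14 tested members passed the test, while 2 rose without replicate 1 of 0 h. In the 0 h group, replicate 1 correlated less with the other 3 libraries (r across genes of 0.972 to 0.985) than these did among themselves (0.992 to 0.996), so counts are also given without it. On the first principal component of the 10 libraries, which held 48.7% of their variance, all 4 libraries of 0 h lay on 1 side and all 6 libraries of 1 h and 2 h on the other.

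Moving a seedling to fresh medium changes what its roots meet and how it is touched. Sulfate is taken up by sulfate transporters, activated by ATP sulfurylase and reduced by APS reductase and sulfite reductase before it enters cysteine and glutathione, and plants make more of the early enzymes when sulfur is short or glutathione is consumed. Glutathione transferases and family 1 glucosyltransferases attach glutathione or glucose to foreign and endogenous compounds. The plant clock is a loop of morning factors such as LHY, day-phased PRR proteins and evening factors, and it sets much of the daily course of metabolism, including nitrate reduction and the use of stored sugar at night.

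Of 21263 genes tested with edgeR's quasi-likelihood test (Benjamini-Hochberg adjusted p below 0.05), 4785 were called at 2 h against 0 h, which is 22.5% of all genes tested. The called genes divided into 2585 that rose (12.2%) and 2200 that fell (10.3%). Changes were mostly small, with a median absolute log2 fold change of 0.52 over the called genes. Large changes were mainly rises: 712 genes rose at least 2-fold (3.35%) and 202 fell at least 2-fold (0.95%), and 149 rose and 19 fell at least 4-fold. The 3 libraries of 2 h did not overlap the 4 of 0 h in 4324 of the called genes, and in 7487 of all genes tested (35.2%). Without replicate 1 of 0 h, 4435 genes were called. The number that fell was the less stable one, with 1370 genes without replicate 1 of 2 h, 1434 without replicate 2 of 2 h, and 1445 with DESeq2. In the fit of 1 h against 0 h, which shares the 0 h libraries, 2982 genes were called (14.0%), 1853 up (8.71%) and 1129 down (5.31%).

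The genes of sulfate uptake and assimilation rose together. Of 25 tested members, 18 rose and none fell, with a median log2 fold change of 1.75, against 0.00 over all genes tested. This list was drawn up after the values had been seen, so its count describes these libraries and supports nothing further. At 1 h, 17 had risen, and over all genes tested 12.2% rose at 2 h and 8.71% at 1 h. The 3 APS reductases, which carry out the first reduction of activated sulfate, were among the risen genes of the list. APR3 stood at 11.1, 11.6, 11.0 and 11.6 CPM in the 4 libraries of 0 h, at 147, 239 and 161 CPM in the 3 of 1 h and at 361, 262 and 214 CPM in the 3 of 2 h. The 0 h libraries were nearly equal and every later library was more than 10 times higher, with a log2 fold change at 2 h of 4.62 ± 0.36 (SE) and an adjusted p of 2.4e-13. APR1 rose from 14.9 ± 3.88 to 132 ± 23.55 CPM (mean ± SD, n = 4 and n = 3; log2 fold change 3.13 ± 0.34, edgeR adjusted p = 1.9e-09). APR2, the isoform with the highest level at 0 h, rose from 102 ± 11.9 to 328 ± 85.9 CPM, a smaller log2 fold change of 1.68 ± 0.34. These 3 genes each overlap another annotated gene. Whether reads were counted by strand is not given in the sources used here, so for every gene said to overlap another, reads of the 2 cannot be told apart.

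Sulfate transporters rose together with the reductases. SULTR1;2, known as the main high-affinity sulfate importer of the root, stood at 12.9, 9.89, 10.3 and 9.84 CPM at 0 h and at 67.3, 63.4 and 66.5 CPM at 2 h, with no overlap and a log2 fold change of 2.62 ± 0.18 (adjusted p = 6.1e-15). The vacuolar exporters SULTR4;1 and SULTR4;2, which release stored sulfate, rose by log2 fold changes of 1.16 ± 0.11 and 2.36 ± 0.17. They share a stretch of 128 nt at 91.4% identity, so reads there may be split between them, and SULTR4;2 overlaps another gene. SULTR2;1, a transporter of vascular tissue, did not pass the test (34.0 ± 2.12 CPM at 0 h and 35.9 ± 10.2 CPM at 2 h). The LSU proteins, named for their response to low sulfur, all rose from low levels. LSU2 stood at 0.612, 0.533, 0.835 and 0.519 CPM at 0 h and at 17.5, 9.76 and 6.61 CPM at 2 h, and LSU1, LSU3 and LSU4 had log2 fold changes of 3.00 ± 0.38, 4.303 ± 0.66 and 2.55 ± 0.45. ATSDI1, a low-sulfur marker whose product restrains glucosinolate synthesis, had a log2 fold change of 3.38 ± 0.54, and AT1G04770, annotated as a tetratricopeptide repeat protein, one of 4.03 ± 0.39 (it overlaps another gene).

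For enzymes before and after APS reductase the values differed less. ATP sulfurylase APS1 rose from 254 ± 6.61 to 395 ± 38.2 CPM, a log2 fold change of 0.64 ± 0.10 (adjusted p = 4.6e-06). Sulfite reductase, SIR, stood at 348, 361, 341 and 339.5 CPM at 0 h and 363, 365 and 384 CPM at 2 h and did not pass the test (adjusted p = 0.44), with a copied stretch of 830 nt at 92.4% identity. The glutathione synthesis genes GSH1 and GSH2 did not pass it either, with log2 fold changes of -0.08 ± 0.08 and 0.02 ± 0.10. SHM7, a serine hydroxymethyltransferase family member known to respond to low sulfur, rose from 16.6 ± 1.75 to 55.8 ± 3.28 CPM. All 18 rises were called in each of the 7 fits that left out 1 library of 0 h or 2 h, and all 18 without replicate 1 of 0 h.

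**Figure D1:**
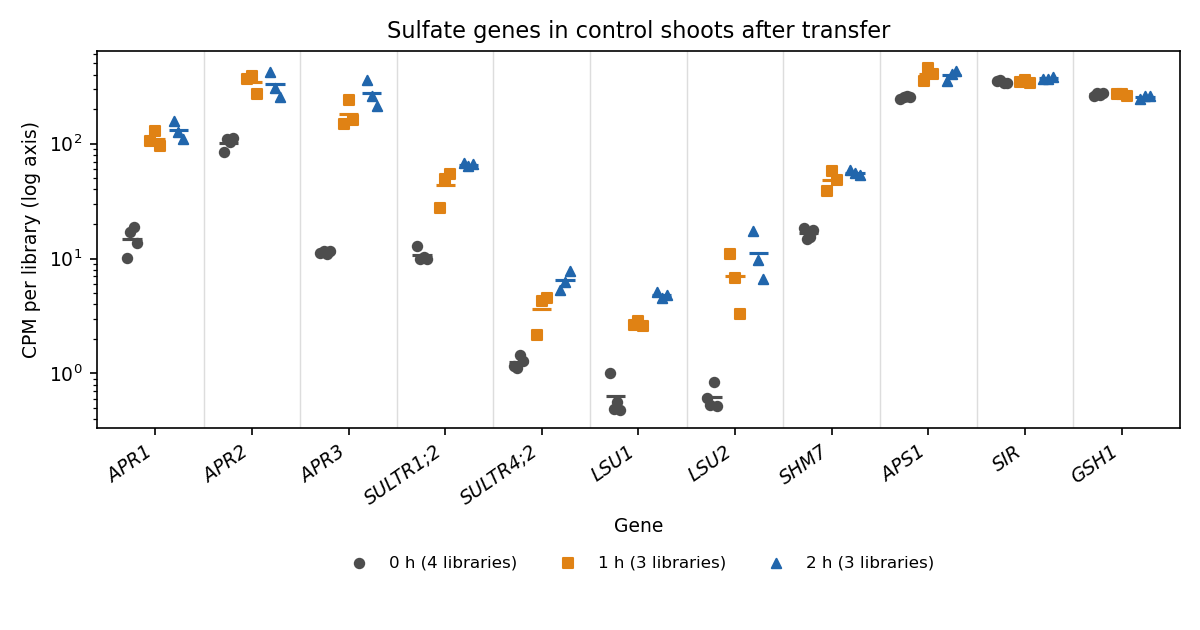
CPM of 11 sulfate genes in each control shoot library (logarithmic y axis), with circles for 0 h, squares for 1 h, triangles for 2 h and short lines for group means. The 3 APR genes, both transporters, LSU1, LSU2 and SHM7 lie higher in every 1 h and 2 h library than in any 0 h library, whereas the groups of SIR and GSH1 lie close together.

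Promoters of some of the risen genes are shown, each picked because it holds the letters TGACG, the core bound by TGA bZIP factors. They are the 250 bases before the annotated gene start in RefSeq's TAIR10.1 genome, printed 5′ to 3′ on the gene's strand, with the motif in capitals. APR3 (chr4:11659168-11659417, minus strand) and SULTR1;2 (chr1:29327265-29327514, plus strand) belong to the sulfate genes, and GSTU24 (chr1:5869293-5869542, plus strand) and GSTU25 (chr1:5871774-5872023, plus strand) are neighbouring glutathione transferase genes described next.
APR3: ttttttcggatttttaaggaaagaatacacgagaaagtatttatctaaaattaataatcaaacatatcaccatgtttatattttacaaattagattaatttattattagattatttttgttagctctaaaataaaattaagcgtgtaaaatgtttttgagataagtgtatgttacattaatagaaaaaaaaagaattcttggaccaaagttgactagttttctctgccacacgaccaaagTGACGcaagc
SULTR1;2: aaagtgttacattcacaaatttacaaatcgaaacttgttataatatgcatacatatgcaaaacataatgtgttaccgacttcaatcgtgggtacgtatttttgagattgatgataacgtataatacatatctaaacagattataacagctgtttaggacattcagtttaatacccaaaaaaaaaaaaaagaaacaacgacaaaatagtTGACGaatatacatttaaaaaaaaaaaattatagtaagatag
GSTU24: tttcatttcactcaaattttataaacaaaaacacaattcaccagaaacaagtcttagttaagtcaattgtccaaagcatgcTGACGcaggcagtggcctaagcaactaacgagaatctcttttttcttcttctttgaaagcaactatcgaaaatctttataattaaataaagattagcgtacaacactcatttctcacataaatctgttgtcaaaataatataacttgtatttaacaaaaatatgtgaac
GSTU25: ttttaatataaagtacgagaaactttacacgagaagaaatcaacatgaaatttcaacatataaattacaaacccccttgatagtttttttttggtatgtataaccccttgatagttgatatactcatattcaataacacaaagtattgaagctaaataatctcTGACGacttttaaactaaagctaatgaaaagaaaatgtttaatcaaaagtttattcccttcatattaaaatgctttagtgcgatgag
Searched on both strands, TGACG was present in 6 of the 18 risen sulfate genes (33.3%) and 0 of the 7 others, and in 19.4% of 21131 promoters of tested nuclear genes. It lay in 25.6% of the 712 promoters of genes that rose at least 2-fold and in 23.0% of the 183 nuclear promoters of genes that fell at least 2-fold. This motif was picked after the values had been seen, and it shares TGAC with the W-box letters TTGACC and TTGACT. Those were searched separately and lay in 17.3% and 23.7% of the promoters of genes that rose at least 2-fold, against 12.3% and 19.1% of all. In the sulfate list they lay in 3 and 5 of the 18 risen genes and likewise in 0 of the 7 others. TGACG also lay in 5 of the 9 risen clock genes (55.6%) and 9 of the 31 other tested clock genes (29.0%). The letters GAGAC, the core of the sulfur-response element, lay in 3 of the 18 risen sulfate genes (16.7%), in 25.4% of the promoters of genes that rose at least 2-fold and in 25.5% of all. A match is a description of letters, not of binding.

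Genes for the handling of foreign compounds rose as well. In the tau class of glutathione transferases, 14 of 27 tested members rose and none fell (median log2 fold change 0.61), and 13 had risen at 1 h. Among the UGT73, UGT74 and UGT75 glucosyltransferases, 12 of 15 rose and none fell (median 1.53), and 11 had risen at 1 h. Both families were singled out after the values had been seen, and over all genes tested 12.2% rose at 2 h and 8.71% at 1 h. Several glucosyltransferase genes have long copied stretches, among them UGT73C6 (1680 nt at 90.9% identity), UGT73B4 (975 nt at 91.0%), and UGT73B2 and UGT73B3 (459 nt at 91.1%). Reads there may be split between genes, so the family count may not rest on separate measurements. GSTU24, an enzyme known from responses to organic pollutants, stood at 12.2, 10.6, 9.57 and 8.84 CPM at 0 h, 26.0, 52.8 and 58.6 CPM at 1 h and 110.4, 88.6 and 64.3 CPM at 2 h. The 3 groups did not overlap, and the log2 fold change at 2 h was 3.096 ± 0.21 (adjusted p = 5.7e-15). Its neighbour GSTU25 rose from 2.75 ± 1.01 to 13.9 ± 1.21 CPM, a log2 fold change of 2.39 ± 0.34. The adjacent GSTU26, which shares the same gene cluster, did not pass the test (6.54 ± 0.836 and 7.08 ± 0.593 CPM). The TGACG letters were present in the promoters of 8 of the 14 risen tau class genes (57.1%) and 3 of the 13 others (23.1%), against 19.4% of all promoters. Family and motif were both picked after the values had been seen, so this contrast describes these promoters and supports nothing further. The W-box letters TTGACC and TTGACT each lay in 5 of the 14 risen genes, and in 3 and 4 of the 13 others. Over all promoters the W-box shares were 12.3% and 19.1%. GAGAC lay in 1 of the 14 and 1 of the 13. In the 12 risen glucosyltransferase genes TGACG lay in 5 and GAGAC in 6, and neither lay in the 3 others.

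GSTU1 and GSTU7 rose by log2 fold changes of 2.11 ± 0.21 and 1.81 ± 0.15, and GSTU7 overlaps another gene. GSTU19, the tau class gene with the highest level here, rose from 498 ± 20.02 to 760.1 ± 52.5 CPM, a log2 fold change of 0.61 ± 0.10. GSTU20, at 225 ± 76.0 CPM at 0 h and 259 ± 15.6 CPM at 2 h, did not pass the test. UGT74E2, a glucosyltransferase of the auxin precursor indole-3-butyric acid, stood at 5.32, 4.11, 2.54 and 2.21 CPM at 0 h and 105, 69.4 and 42.0 CPM at 2 h. The lowest 2 h library was about 8 times the highest 0 h library, and the log2 fold change was 4.38 ± 0.33 (adjusted p = 9.9e-14). UGT73C1 rose from 1.35 ± 0.305 to 18.5 ± 10.6 CPM and UGT75B1 from 18.19 ± 2.33 to 99.1 ± 44.0 CPM, log2 fold changes of 3.74 ± 0.35 and 2.45 ± 0.21. UGT75B1 overlaps another gene. Of these calls, those of GSTU9, GSTU28 and UGT74F2 were lost when single libraries were left out, with adjusted p-values reaching 0.13 without replicate 2 of 0 h, 0.098 without replicate 2 of 2 h and 0.14 without replicate 3 of 2 h. UGT74F2 overlaps another gene.

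Other genes of the same kind stood among the largest rises and the smallest p-values. ELI3-2, an aromatic alcohol dehydrogenase first known from elicitor-treated plants, had the largest rise among called genes averaging 5 CPM or more whose groups did not overlap. It stood at 0.180, 1.33, 0.182 and 0.541 CPM at 0 h and 28.1, 12.5 and 10.3 CPM at 2 h (log2 fold change 4.77 ± 0.51, edgeR adjusted p = 1.1e-09). OPR1, an oxophytodienoate reductase outside the main jasmonate pathway, rose from 50.7 ± 5.29 to 419.6 ± 77.1 CPM (3.05 ± 0.18 on the log2 scale, adjusted p = 6.1e-17), and it was already at 405 ± 118 CPM at 1 h. It overlaps another gene and has a copied stretch of 144 nt at 91.7% identity. UGT84A3, a glucosyltransferase of hydroxycinnamic acids, rose from 3.93 ± 0.426 to 25.8 ± 7.83 CPM. Among 40 tested cytochromes P450 of the CYP81 and CYP71B groups, a set also chosen after the values were seen, 10 rose and 3 fell. Over all genes tested, 12.2% rose and 10.3% fell. The median log2 fold change of the 40 was only 0.08, and 21 of them had a positive value. Of the 13 P450 calls, 8 held in all fits with 1 library left out, and 5 fell without replicate 2 of 0 h and 6 without replicate 3 of 0 h. CYP71B26 stood at 7.37, 6.48, 11.7 and 6.70 CPM at 0 h and 51.2, 53.9 and 40.7 CPM at 2 h, and CYP81D8 rose from 6.82 ± 2.56 to 35.8 ± 13.5 CPM. TGA3, a bZIP factor of the TGA family that binds TGACG, had the smallest p of all genes. It stood at 8.38, 6.90, 8.20 and 5.97 CPM at 0 h, 16.6, 16.4 and 18.3 CPM at 1 h and 27.2, 26.2 and 25.5 CPM at 2 h, with a log2 fold change of 1.84 ± 0.10 (adjusted p = 1.9e-18). Its rise from 1 h to 2 h also passed the direct test (0.62 ± 0.10 on the log2 scale, adjusted p = 0.00049).

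**Figure D2:**
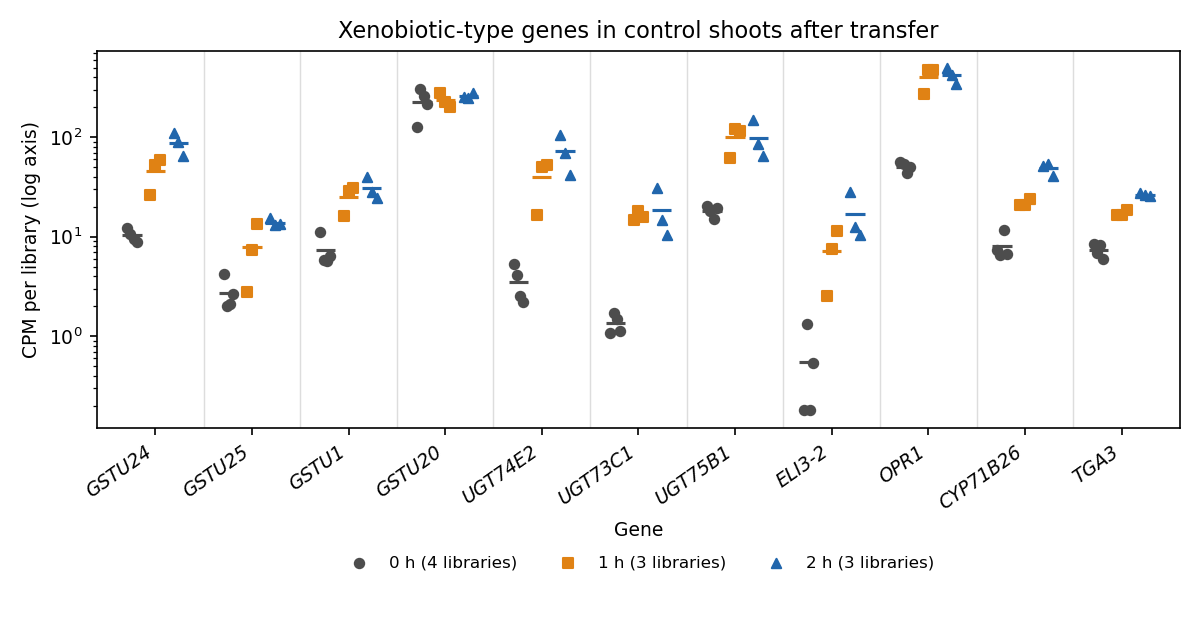
CPM of 11 genes of glutathione and glucose conjugation, oxidation and the factor TGA3 in each control shoot library (logarithmic y axis), with circles for 0 h, squares for 1 h, triangles for 2 h and short lines for group means. Except for GSTU20, every 2 h library lies above every 0 h library.

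The account of the other gene lists starts from how many members were called in each direction, beside 12.2% risen and 10.3% fallen over all genes tested. For counts at 1 h against 0 h, these shares were 8.71% and 5.31%. All lists were chosen with earlier results of these data known, so their counts describe these libraries only.

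**Figure D3:**
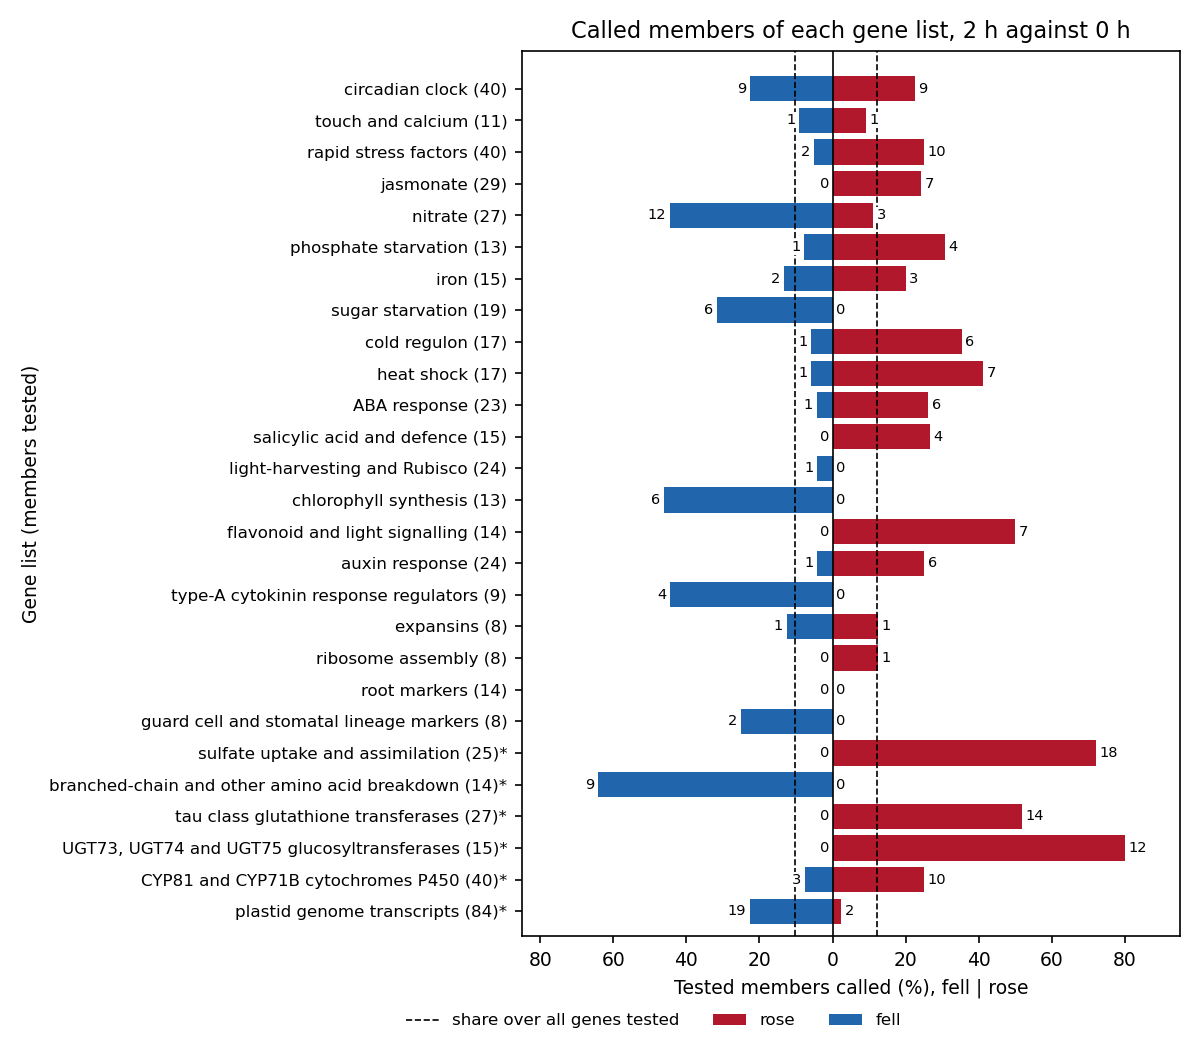
Share of the tested members of each gene list that rose (bars to the right) or fell (bars to the left) at 2 h against 0 h, with the number of members at the bar ends, the number tested in parentheses and dashed lines at 12.2% and 10.3% for all genes tested. Stars mark lists drawn up after the values had been seen, and the other lists were chosen with earlier results of these data known. The nitrate, sugar starvation, chlorophyll, cytokinin regulator and amino acid breakdown lists extend mainly to the left.

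Genes of nitrate assimilation fell. Of 27 tested nitrate genes, 12 fell and 3 rose, with a median log2 fold change of -0.42, and at 1 h 9 had fallen and 3 had risen. The nitrate reductase gene NIA1 stood at 1137, 801, 634 and 827 CPM at 0 h, 163, 221 and 317 CPM at 1 h and 204, 245 and 276 CPM at 2 h. Every later library was below every 0 h library, with a log2 fold change at 2 h of -1.81 ± 0.26 (adjusted p = 6.3e-07) and no called difference between 1 h and 2 h. The second nitrate reductase, NIA2, was at 2499.5 ± 582 CPM at 0 h and 1002 ± 76.7 CPM at 2 h (-1.32 ± 0.20 on the log2 scale). Nitrite reductase, NIR1, fell from 508 ± 42.7 to 232 ± 8.27 CPM (-1.13 ± 0.12), and UPM1, which makes the siroheme cofactor of nitrite and sulfite reductase, fell by a log2 fold change of -1.19 ± 0.18. UPM1 overlaps another gene and has a copied stretch of 403 nt at 91.1% identity. Among the listed genes of ammonium assimilation, the glutamate synthases GLT1 and GLU1 had log2 fold changes of -1.21 ± 0.16 and -0.66 ± 0.14, and the plastid glutamine synthetase GS2 one of -0.57 ± 0.10. GLT1 and GLU1 overlap other genes.

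The nitrate genes that rose were all transport genes. NRT1.7, which loads nitrate into the phloem of older leaves, rose from 24.7 ± 1.33 to 45.0 ± 6.48 CPM, and NRT2.5, a high-affinity transporter of nitrogen-starved plants, from 0.778 ± 0.298 to 2.07 ± 0.546 CPM. NRT2.5 has a copied stretch of 247 nt at 93.9% identity. WR3, the partner protein of the NRT2 transporters, rose by a log2 fold change of 0.64 ± 0.17, a call lost without replicate 1 of 2 h (adjusted p = 0.060). NRT1.8, which withdraws nitrate from the xylem, was not in the list but was among the 10 largest rises. It stood at 3.53, 1.82, 1.84 and 1.77 CPM at 0 h and 32.6, 13.5 and 12.5 CPM at 2 h (log2 fold change 3.19 ± 0.33), with 1 library of 2 h well above the other 2, and it overlaps another gene. The nitrate sensor and transporter NRT1.1 did not pass the test (141 ± 7.49 and 149.9 ± 13.1 CPM). Of the 15 calls, 12 were made in all 7 fits with 1 library left out. The 3 others were WR3, LBD39 (adjusted p up to 0.082 without replicate 1 of 2 h) and CIPK23 (0.12 without replicate 1 of 0 h).

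Genes switched on by darkness and lack of sugar fell. In the sugar starvation list, 6 of 19 tested members fell and none rose (median log2 fold change -0.79), and 5 had fallen and 1 had risen at 1 h. ASN1, the dark-inducible asparagine synthetase, stood at 591, 127, 246 and 305 CPM at 0 h, 45.7, 54.7 and 94.1 CPM at 1 h and 50.9, 45.5 and 81.7 CPM at 2 h. The 0 h libraries spread more than 4-fold among themselves but all lay above the later ones, and the log2 fold change at 2 h was -2.42 ± 0.43 (adjusted p = 4.4e-05). ASN1 overlaps another gene. SEN1, a dark- and senescence-induced gene, was at 379, 104, 208 and 214 CPM at 0 h and 56.0, 64.7 and 89.2 CPM at 2 h (-1.695 ± 0.38 on the log2 scale). DIN2, a beta-glucosidase gene of the same response, had a log2 fold change of -1.19 ± 0.26. In all 3 genes, replicate 1 was the highest of the 0 h libraries. Without it, 5 of the 19 were called. The call of TPS10, which has a copied stretch of 240 nt at 93.3% identity, was lost when single libraries were left out (adjusted p up to 0.14 without replicate 1 of 0 h).

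Genes for the breakdown of branched-chain and other amino acids, which feeds respiration when sugar is short, fell as well. In a list of 14 such genes drawn up after the values were seen, 9 fell and none rose (median -0.80), and 10 had fallen at 1 h. BCE2 and DIN4, subunits of the branched-chain keto acid dehydrogenase that also stand in the sugar starvation list, had log2 fold changes of -1.43 ± 0.25 and -1.08 ± 0.24. The methylcrotonyl-CoA carboxylase subunits MCCA and MCCB were at 133 ± 64.8 and 65.1 ± 16.4 CPM at 0 h and at 43.4 ± 15.6 and 38.2 ± 6.26 CPM at 2 h. The threonine aldolase THA1 stood at 134, 31.7, 46.7 and 69.6 CPM at 0 h and 20.3, 17.8 and 24.0 CPM at 2 h, with replicate 1 of 0 h the highest. Without replicate 1 of 0 h, 7 of the 14 were called. The glutamate dehydrogenases GDH1 and GDH2 were called with all libraries and lost when some single libraries were left out, with adjusted p-values up to 0.20 without replicate 1 of 2 h and 0.19 without replicate 1 of 0 h. They have copied stretches of 114 nt at 93.9% and 116 nt at 93.1% identity. Apart from MCCB and GDH2, these named genes overlap other genes.

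**Figure D4:**
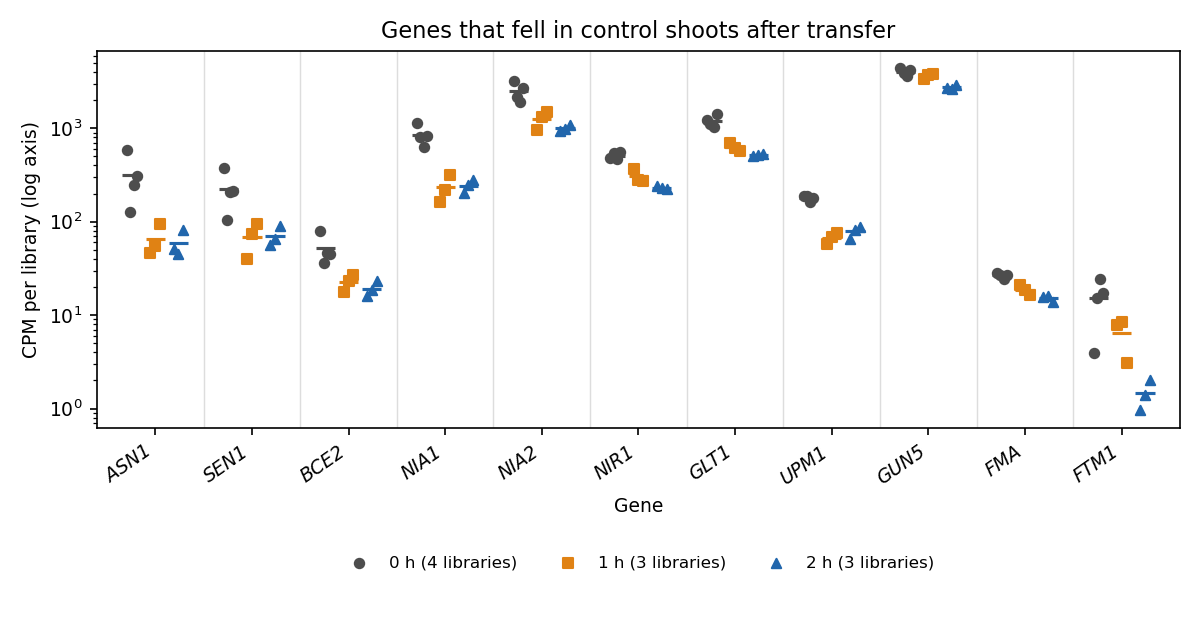
CPM of 11 genes that fell, in each control shoot library (logarithmic y axis), with circles for 0 h, squares for 1 h, triangles for 2 h and short lines for group means. Every 2 h library lies below every 0 h library for each gene, and the 0 h libraries spread most for ASN1, SEN1 and FTM1.

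Clock genes moved in both directions. Of 40 tested members, 9 rose and 9 fell (median log2 fold change -0.03), and at 1 h 6 had risen and 4 had fallen. Among the fallen genes were the morning factors LHY and RVE2. LHY, a MYB-like repressor that peaks around dawn, stood at 738, 551, 486 and 647 CPM at 0 h, 564, 573 and 487 CPM at 1 h and 392, 309.7 and 289.6 CPM at 2 h. It did not pass the test at 1 h and was lower at 2 h by a log2 fold change of -0.87 ± 0.21 (adjusted p = 0.0019). Its close relative CCA1, at 365 ± 56.3 and 268 ± 42.8 CPM, did not pass the test (adjusted p = 0.085). RVE2 was at 170.0 ± 49.5 CPM at 0 h and 68.1 ± 17.0 CPM at 2 h (-1.32 ± 0.23 on the log2 scale). The evening complex genes PCL1 and ELF3 and the PCL1 relative BOA fell by log2 fold changes of -0.52 ± 0.15, -0.41 ± 0.12 and -1.16 ± 0.21, and all 3 overlap other genes. ELF4, also an evening complex gene, rose. The others that fell were CO, LCL1, COL2 and LKP2, and CO, COL2 and LKP2 overlap other genes.

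The pseudo-response regulators PRR9, PRR7 and PRR5 rose, as did GI. GI, a late-day regulator of flowering and of the clock, stood at 3.63, 4.24, 5.45 and 4.00 CPM at 0 h, 26.9, 22.3 and 19.7 CPM at 1 h and 25.4, 24.1 and 20.3 CPM at 2 h. The later libraries lay at about 5 times the level of 0 h (log2 fold change at 2 h 2.41 ± 0.18, adjusted p = 2.7e-14), with no called difference between 1 h and 2 h. PRR7 climbed in steps from 44.9, 28.4, 48.5 and 32.1 CPM at 0 h to 64.7, 64.8 and 75.0 CPM at 1 h and 114, 116 and 127 CPM at 2 h. Its groups did not overlap, and its rise from 1 h to 2 h passed the direct test (0.80 ± 0.13 on the log2 scale, adjusted p = 0.00023). PRR9, a light-responsive member, rose from 4.17 ± 1.79 to 22.4 ± 9.93 CPM, but a stretch of 906 nt has a copy at 99.7% identity, so its level is uncertain. PRR5 and FKF1, a blue-light receptor of late-day phase, rose by log2 fold changes of 1.18 ± 0.21 and 1.69 ± 0.33, and FKF1 overlaps another gene. ELF4, AT5G64170, PIF4 and EPR1 rose by log2 fold changes between 0.62 and 0.93. AT5G64170 overlaps another gene, and EPR1 is uncertain, since a stretch of 1132 nt has a copy at 99.7% identity.

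The evening element AAAATATCT, a sequence through which LHY-type factors act, was searched on both strands of the same 250-base promoters. It lay in 3 of the 9 risen clock genes (33.3%), in 7 of the 31 others (22.6%), and in 2.49% of all 21131 promoters. Among genes that rose at least 2-fold it lay in 5.06%, and among those that fell at least 2-fold in 4.37%. The promoter of PRR5 (TAIR10.1, chr5:8358547-8358796, minus strand) is shown as the example, with the element, read here on the opposite strand, in capitals.
PRR5: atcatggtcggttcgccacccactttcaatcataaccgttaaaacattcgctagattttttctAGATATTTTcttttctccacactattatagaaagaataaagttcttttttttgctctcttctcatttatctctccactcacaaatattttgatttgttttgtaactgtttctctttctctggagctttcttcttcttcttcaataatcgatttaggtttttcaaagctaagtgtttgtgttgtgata
In PRR5 the element starts 187 bases before the gene start. The letters of the CCA1 site, AAAAATCT, lay in 7.16% of the promoters of genes that rose at least 2-fold and in 6.68% of all, and those of the G-box, CACGTG, in 7.87% and 7.48%.

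The later control shoots place these values in a longer course, although they carry other library-name prefixes than the 0 h to 2 h libraries and were not tested here. LHY fell on to 125 CPM at 4 h and 25.6 CPM at 7 h and stood at 464 CPM at 24 h, while GI reached 122 CPM at 7 h and stood at 9.09 CPM at 24 h (means of 3 libraries). PRR7 and PRR5 also had their highest means at 7 h, 237 and 86.0 CPM. At 24 h, LHY, GI and PRR7 (66.3 CPM) were nearer to their 0 h means than at 7 h. APR3 and NIA1 were not: APR3 averaged 11.3 CPM at 0 h, 122 CPM at 7 h and 136 CPM at 24 h, and NIA1 849, 356 and 313 CPM. The 7 h mean includes 1 very shallow library. The cause of these different courses was not tested, and PRR5, PRR9 and RVE2 were not compared in this way.

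**Figure D5:**
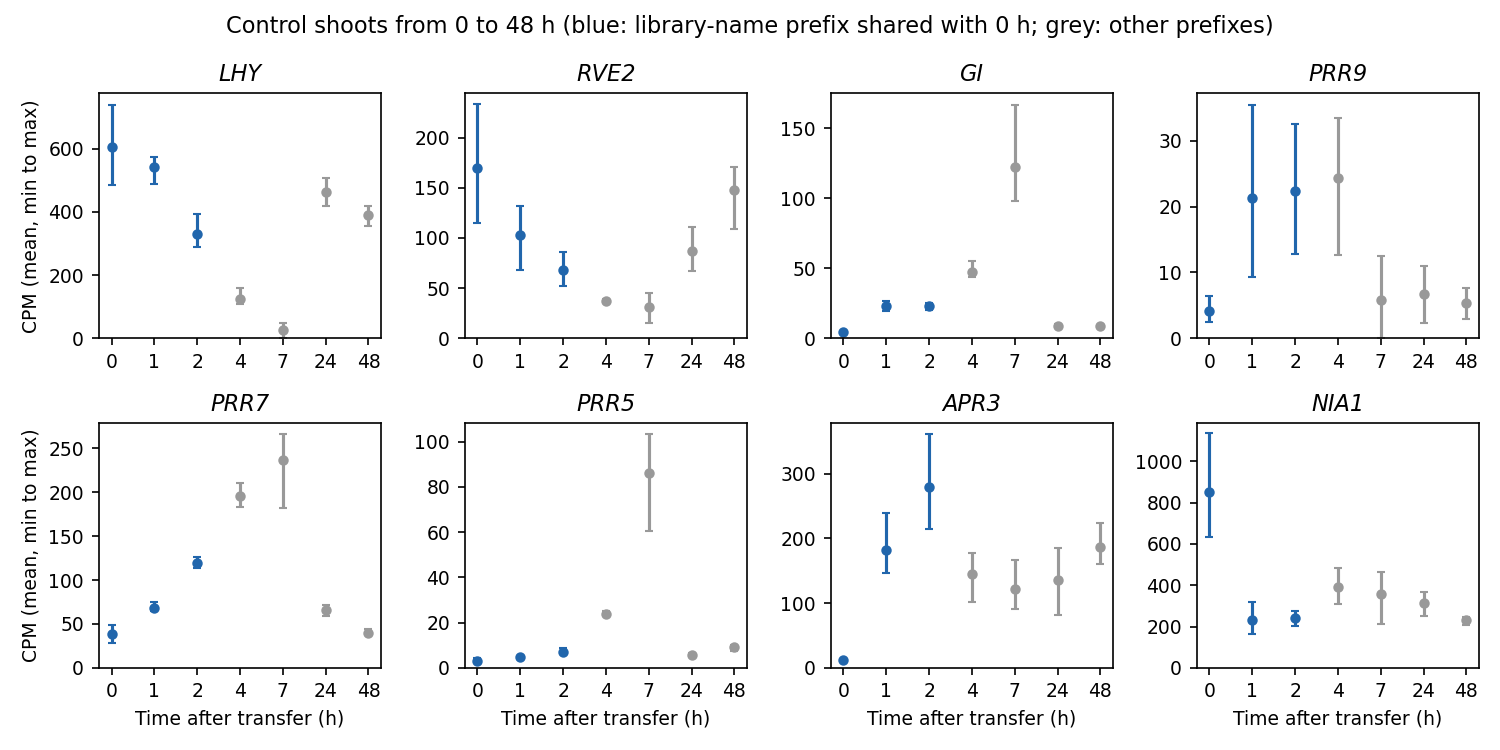
CPM of 6 clock genes, APR3 and NIA1 in control shoots from 0 to 48 h (points are group means and bars run from the lowest to the highest library, 4 libraries at 0 h and 3 at other times). Blue marks the 0 h, 1 h and 2 h libraries that share a library-name prefix, grey the later ones with other prefixes, and the 7 h group includes 1 very shallow library.

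Of the 18 clock calls, 12 were made in all 7 fits with 1 library left out. Those of CO, COL2, ELF3, LKP2, EPR1 and PIF4 were lost in at least 1 of them, with adjusted p-values up to 0.14 without replicate 3 of 2 h, 0.069 without replicate 1 of 2 h, 0.067 without replicate 2 of 2 h, 0.15 without replicate 1 of 0 h, 0.089 without replicate 2 of 0 h and 0.073 without replicate 3 of 2 h. The libraries whose removal did this were replicate 1 or 2 of 0 h and replicates 1, 2 and 3 of 2 h. Without replicate 1 of 0 h, 10 clock genes rose and 6 fell.

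Some genes of chlorophyll synthesis fell slightly, and among the light-harvesting genes 1 call was made. Of 13 tested genes of chlorophyll synthesis, 6 fell and none rose (median -0.27), and none was called at 1 h. GUN5, the large subunit of magnesium chelatase, stood at 4428, 3909.9, 3657 and 4202 CPM at 0 h and 2667, 2627 and 2899 CPM at 2 h, a log2 fold change of -0.57 ± 0.16 (adjusted p = 0.0080). CHLI2, a small subunit of the same enzyme, and G4, chlorophyll synthase, had log2 fold changes of -0.58 ± 0.12 and -0.32 ± 0.09. CHLI2 overlaps another gene, as do CHLI1, CHLM and CRD1. The calls of GUN5, CHLI2 and G4 held in all fits with 1 library left out, and 3 of the 13 fell without replicate 1 or 2 of 2 h. The calls of CHLI1, CHLM and CRD1 did not hold (adjusted p up to 0.077 without replicate 1 of 2 h, 0.066 without replicate 1 of 0 h and 0.14 without replicate 1 of 2 h). Of 24 genes for light-harvesting proteins and Rubisco small subunits, 1 fell (Lhca5, -0.20 ± 0.07 on the log2 scale) and none rose. Lhca5 overlaps another gene, and its call was lost in every fit with 1 library left out (adjusted p up to 0.12 without replicate 2 of 2 h). A fit of only the libraries compared gave 4 of the 24 that fell.

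Transcripts assigned to the plastid genome were lower at 2 h. Their share of all counts was between 0.054% and 0.068% at 0 h, between 0.065% and 0.092% at 1 h and between 0.043% and 0.049% at 2 h. Of 84 tested plastid genes, 19 fell and 2 rose at 2 h against 0 h (median log2 fold change -0.57). None was called at 1 h against 0 h, and 9 fell and none rose in the direct test of 2 h against 1 h, each of them lost in at least 2 of the 6 fits that left out a library. ATCG01050 stood at 10.8, 9.15, 7.76 and 7.96 CPM at 0 h, 10.3, 9.25 and 9.29 CPM at 1 h and 3.28, 2.03 and 2.22 CPM at 2 h (log2 fold change at 2 h -1.82 ± 0.48, adjusted p = 0.0041). Most plastid RNA has no stable poly(A) tail, so poly(A) libraries hold little of it, and what these values say of plastid RNA levels was not tested. Only 4 of the 21 calls were made in all fits with 1 library left out, and without replicate 1 of 0 h 12 fell and 1 rose. The number that fell was 5 without replicate 2 of 2 h and 7 without replicate 3 of 2 h, but 33 in a fit of only the libraries compared and 38 in one of the control shoots alone.

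Some flavonoid genes rose. Of 14 tested flavonoid and light signalling genes, 7 rose and none fell (median 0.49), and 5 had risen at 1 h. DFR and LDOX, late enzymes of anthocyanin synthesis, stood at 9.82, 53.1, 42.2 and 20.003 CPM and 6.19, 32.1, 23.7 and 13.1 CPM at 0 h and at 119, 84.8 and 112 CPM and 84.8, 55.6 and 64.8 CPM at 2 h. Replicate 1 was the lowest of the 0 h libraries for both, and the groups did not overlap (log2 fold changes 1.74 ± 0.32 and 1.85 ± 0.37). LDOX has a copied stretch of 370 nt at 96.2% identity. F3H, an earlier enzyme of the pathway, rose from 45.1 ± 12.8 to 103 ± 30.0 CPM and was at 119 ± 18.0 CPM at 1 h, and it overlaps another gene. PAP1, a MYB activator of anthocyanin genes, had a log2 fold change of 2.11 ± 0.57, a call lost without replicate 1 of 2 h (adjusted p = 0.097), and a copied stretch of 130 nt at 93.1% identity. The calls of DFR, LDOX and F3H held in all fits with 1 library left out, and the 4 others did not. Besides PAP1 these were TT5 (adjusted p 0.12 without replicate 1 of 2 h), MYB12 (0.051 without replicate 2 of 2 h) and PIL1 (up to 0.32 without replicate 1 of 2 h), and 4 of the 14 genes rose without replicate 1 of 2 h.

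Heat shock genes and rapid stress factors rose in part. Of 17 tested heat shock genes, 7 rose and 1 fell (median 0.70), and 7 had risen at 1 h. HSP70 (AT3G12580), a cytosolic chaperone, stood at 15.8, 19.6, 17.5 and 23.1 CPM at 0 h and 60.3, 42.6 and 35.3 CPM at 2 h, a log2 fold change of 1.28 ± 0.25 (adjusted p = 0.00017). HSP90.1 rose from 10.6 ± 1.101 to 23.8 ± 4.96 CPM. The factor HSFA2 and the small heat shock proteins HSP17.6A and HSP17.6II rose from under 1 CPM by log2 fold changes of 2.65 ± 0.51, 2.79 ± 0.40 and 2.58 ± 0.47. AT-HSFB2B, a repressor type heat shock factor, fell (-0.63 ± 0.17) and overlaps another gene. All of these calls held with 1 library left out, and the call of HSP18.2 did not (adjusted p up to 0.24 without replicate 2 of 2 h).

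Of 40 tested rapid stress factors, genes known to flare within minutes of touch, cold or wounding, 10 rose and 2 fell (median 0.31), and 10 had risen at 1 h. ZAT11, a zinc finger factor, rose from 0.992 ± 0.448 to 3.67 ± 1.46 CPM, and WRKY6 and WRKY11 had log2 fold changes of 0.76 ± 0.15 and 0.62 ± 0.14. These were the 3 of the 12 calls made in all fits with 1 library left out. The number that rose was 6 without replicate 1 of 2 h, 4 without replicate 2 of 2 h and 5 without replicate 3 or 4 of 0 h. CAF1a, a deadenylase subunit, was called as lower, with its highest 0 h level in replicate 2 (16.8, 48.8, 13.4 and 12.3 CPM at 0 h), and without that library its adjusted p was 0.11. CBF2, a cold-regulon factor, also had its highest 0 h level in replicate 2 (1.403, 5.04, 0.987 and 0.887 CPM), but its fall to 0.499, 0.355 and 0.382 CPM at 2 h (log2 fold change -2.37 ± 0.54) was called in all fits with 1 library left out. Without replicate 2 of 0 h the log2 fold change was -1.36, and under a filter of 1 CPM in 3 libraries the gene was not tested. Of 17 tested cold regulon genes, 6 rose and 1 fell (median 0.26), and ERD10 and KIN2, dehydrin and cold-induced protein genes, rose by 0.74 ± 0.16 and 1.00 ± 0.21 on the log2 scale. Without replicate 1 of 0 h, 3 of them rose and 2 fell, and 3 rose without replicate 4 of 0 h or replicate 2 of 2 h. KIN2 has a copied stretch of 294 nt at 90.8% identity. Of 11 tested touch and calcium genes, 1 rose and 1 fell, shares near those of all genes.

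Some jasmonate genes rose by small amounts. Of 29 tested members, 7 rose and none fell (median 0.32), and 8 had risen at 1 h. The allene oxide cyclases AOC1 and AOC2 rose from 12.6 ± 1.05 to 22.7 ± 3.43 and from 18.3 ± 6.17 to 38.9 ± 6.87 CPM, but they share 539 nt at 90.9% identity. OPR3, the reductase of the main pathway, rose by a log2 fold change of 0.48 ± 0.13 (adjusted p = 0.0073), against 3.05 ± 0.18 for OPR1, which is not in the list. The calls of LOX3, OPCL1 and JAZ6 were lost when single libraries were left out (adjusted p up to 0.074 without replicate 1 of 2 h, 0.062 without replicate 1 of 0 h and 0.072 without replicate 1 of 2 h), and 4 genes rose without replicate 1 of 2 h. Of 15 salicylic acid and defence genes, 4 rose and none fell (median 0.40). FRK1, a kinase gene used as a marker of early immune responses, stood at 12.3, 14.6, 15.2 and 11.9 CPM at 0 h and 54.9, 47.7 and 40.1 CPM at 2 h (1.81 ± 0.22 on the log2 scale), overlaps another gene, and was the only 1 of the 4 whose call held in all fits with 1 library left out. The count was 2 with DESeq2, with no filter and without replicate 1 or 3 of 0 h or replicate 1 of 2 h, and 1 without replicate 3 of 2 h.

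Some ABA-related genes rose. Of 23 tested members, 6 rose and 1 fell (median 0.30), and 5 had risen and 1 had fallen at 1 h. CYP707A2, an ABA hydroxylase that breaks the hormone down, had the largest change, from 6.69, 7.65, 6.64 and 4.58 CPM at 0 h to 27.3, 23.56 and 16.8 CPM at 2 h (1.82 ± 0.27 on the log2 scale, adjusted p = 1.7e-06). RD22 and HB-7, ABA- and drought-responsive genes, had log2 fold changes of 0.64 ± 0.11 and 0.69 ± 0.14. The PP2C phosphatase gene ABI1 had one of 0.51 ± 0.12 and overlaps another gene. Of the 7 calls, 5 held in all fits with 1 library left out. The call of ABI2 was lost without replicate 1 of 2 h (adjusted p = 0.065). That of PYL4, the gene that fell, was lost without replicate 3 of 2 h (adjusted p = 0.075). Without replicate 1 of 0 h, 8 rose and 1 fell.

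Growth hormone genes gave mixed results. Of 24 tested auxin response genes, 6 rose and 1 fell (median 0.33), but IAA1 (0.98 ± 0.23 on the log2 scale) was the only call that held in all fits with 1 library left out, and without replicate 1 of 0 h 3 rose and none fell. Of the 24, 1 rose without replicate 2 of 2 h and 2 without replicate 3 of 2 h. Of 9 tested type-A response regulators, which dampen cytokinin signalling and are induced by it, 4 fell and none rose (median -0.50), and 1 had risen at 1 h. RR3 stood at 46.3, 35.2, 35.3 and 39.98 CPM at 0 h and 27.2, 26.5 and 29.6 CPM at 2 h (log2 fold change -0.50 ± 0.11, adjusted p = 0.00079), overlaps another gene and has a copied stretch of 325 nt at 92.3% identity. The calls of ARR4, ARR15 and RR5 were lost when single libraries were left out (adjusted p up to 0.15 without replicate 2 of 2 h, 0.10 without replicate 4 of 0 h and 0.16 without replicate 2 of 2 h), and without replicate 1 of 0 h 2 of the 9 fell. The count was 1 with DESeq2 and without replicate 1 or 2 of 2 h, 2 without replicate 3 of 2 h or replicate 3 or 4 of 0 h, and 7 in the fits of only the libraries compared or the control shoots alone. Among 8 expansins, which loosen cell walls, EXPA1 fell from 589.6 ± 17.5 to 356 ± 45.1 CPM and EXPA11 rose from 10.4 ± 1.51 to 19.2 ± 3.66 CPM.

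A pair of stomatal lineage genes fell. FMA, the factor of the last step of guard cell formation, stood at 28.0, 26.9, 24.5 and 27.2 CPM at 0 h, 21.1, 18.7 and 16.6 CPM at 1 h and 15.7, 16.1 and 13.7 CPM at 2 h, a log2 fold change at 2 h of -0.81 ± 0.09 (adjusted p = 1.2e-08). TMM, a receptor protein of stomatal patterning, had a log2 fold change of -0.78 ± 0.15. These 2 of 8 tested markers of guard cells and their lineage fell and none rose (median -0.24), and at 1 h 3 had fallen and none had risen. The sum of the 8 ranged from 93.8 to 104.9 CPM at 0 h and from 69.6 to 77.8 CPM at 2 h.

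Mineral nutrient lists other than sulfate and nitrate held few firm calls at 2 h. Of 13 tested phosphate starvation genes, 4 rose and 1 fell (median 0.54), and the calls of PHT1;1 and PHF1 held in all fits with 1 library left out, while 2 rose without replicate 1 of 2 h. PHT1;1, a phosphate importer, rose from 13.9 ± 2.33 to 29.5 ± 4.04 CPM, but a stretch of 1176 nt has a copy at 98.1% identity. PHF1, needed for phosphate transporters to leave the endoplasmic reticulum, had a log2 fold change of 0.54 ± 0.11. Of 15 iron genes, 3 rose and 2 fell (median 0.45; 1 rose without replicate 1 or 3 of 2 h), and only the call of bHLH39, a factor of the iron deficiency response, held in all such fits (0.576, 0.885, 1.43 and 0.887 CPM at 0 h and 4.12, 4.19 and 3.63 CPM at 2 h, log2 fold change 2.02 ± 0.38). At 1 h, 7 of the 13 phosphate starvation genes had risen and none had fallen. Of the 15 iron genes, 7 had risen and 1 had fallen at 1 h. Over all genes tested, 8.71% had risen and 5.31% had fallen at 1 h. Of 8 ribosome assembly genes, 1 rose and none fell at 2 h, and it was not called without replicate 1 of 0 h.

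The largest falls outside these lists came from genes at low levels. FTM1, an acyl-ACP desaturase gene known from the shoot meristem at floral transition, stood at 3.96, 15.1, 24.2 and 17.1 CPM at 0 h and 0.954, 1.402 and 2.02 CPM at 2 h (log2 fold change -3.42 ± 0.47, adjusted p = 3.7e-07). GL22, a germin-like protein gene, DMP2, a membrane protein gene, and TED6, known from secondary walls of xylem vessels, had log2 fold changes of -2.08 ± 0.23, -2.07 ± 0.24 and -1.84 ± 0.25. All 3 were already at their lower level at 1 h. AT4G25580 stood at 22.3, 3.41, 6.09 and 8.93 CPM at 0 h, with replicate 1 the highest, and at 1.04, 0.811 and 1.26 CPM at 2 h (-3.29 ± 0.42). AT4G36850 and AT3G48390 were also among the 10 largest falls, at -1.87 ± 0.52 and -1.83 ± 0.56 on the log2 scale, and the call of AT3G48390 could be lost by leaving out a library (adjusted p up to 0.097 without replicate 1 of 2 h). AT1G13930, annotated as oleosin-B3-like, had the second smallest p of all genes. It rose in steps from 65.0 ± 6.17 CPM at 0 h to 109.9 ± 3.41 at 1 h and 212 ± 14.6 CPM at 2 h (log2 fold change at 2 h 1.704 ± 0.10), and it overlaps another gene.

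The direct test of 2 h against 1 h, which uses no 0 h library, called 242 genes (1.14%), 136 higher (0.64%) and 106 lower (0.499%) at 2 h, and 2521 genes had an unadjusted p below 0.05. The count depended on single libraries and was 78 without replicate 2 of 1 h, 94 without replicate 2 of 2 h, 114 without replicate 3 of 2 h and 150 without replicate 1 of 1 h. Some genes had gone back by 2 h towards their 0 h level. EXPA8, an expansin, stood at 55.3, 30.1, 41.5 and 42.9 CPM at 0 h, 12.3, 13.7 and 24.6 CPM at 1 h and 32.6, 55.1 and 48.4 CPM at 2 h. The 1 h libraries were all lower than the others, and the rise from 1 h to 2 h had a log2 fold change of 1.42 ± 0.27 (adjusted p = 0.0024). WRKY30, a defence factor, went the other way, with 2.76 ± 0.843, 10.2 ± 2.65 and 3.62 ± 0.423 CPM at the 3 times (-1.48 ± 0.30, adjusted p = 0.0053). Stepwise rises like those of PRR7 and TGA3 were also seen in CYP71B26 (1.16 ± 0.19 from 1 h to 2 h, adjusted p = 0.00026) and in AT1G13930 (0.95 ± 0.11, adjusted p = 3.2e-07). Among the listed sulfate genes 2 rose from 1 h to 2 h, SULTR4;1 and SULTR4;2, and both calls were lost when single libraries were left out (adjusted p up to 0.13 without replicate 1 of 1 h and 0.17 without replicate 1 of 1 h). EXPA8 and WRKY30, and the uncalled genes SULTR2;1, SIR, GSH1, GSH2, GSTU20, GSTU26, NRT1.1 and CCA1, were named after their values were seen.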

How the data were processed

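The authors deposited whole-number counts per gene for 116 libraries, and the submitters' processing notes name HISAT2, featureCounts and the TAIR10 build. Strand setting and the handling of reads with several matches are not given in the sources used here. Counts were compared with edgeR 4.0.16 in R 4.3.3 (TMM scaling, filterByExpr, quasi-likelihood test, Benjamini-Hochberg adjusted p below 0.05) in 1 fit of all 58 shoot libraries in 19 groups, which kept 21263 of 27655 genes. CPM values of shoots are TMM-scaled, while those of control roots are scaled to total counts alone. DESeq2 1.42.0, RLE scaling, other filters, smaller fits, a replicate block and left-out libraries were alternatives. Nothing states that replicates came from separate plates, so p-values measure the spread between libraries, which may be partly technical. The fit was also run on simulated counts with known changes. These held no deviating library such as replicate 1 of 0 h, so they do not bear on calls that depend on single libraries.

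The members and the gene lists were chosen with earlier results of these data known. Named genes were the 10 largest rises and 10 largest falls among called genes without overlap and a mean of at least 5 CPM, the 5 smallest p-values and, per list, up to 4 called members with the largest change and at least 1 CPM, and any called member of a list with 5 or more calls in 1 direction or of the clock list. The lists of sulfate, amino acid breakdown, tau class, UGT, P450 and plastid genes and the motifs TGACG and GAGAC were added after values were seen, and 4 list entries whose symbols did not match were dropped. Copies are BLAST 2.17.0 matches of at least 100 nt at 90% identity. Symbols and promoters come from RefSeq's TAIR10.1, to which 27445 gene identifiers matched. The depth of each library limits low genes, where 3 counts were taken as the floor.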

Additional observations from a re-analysis of the deposited data

Results flagged for a closer look

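Among 143 genes named in the text, 13 had 1 library of 0 h far from the other 3, by a gap that, divided by the range of the 4 libraries, was above Dixon's 95% critical value. Chance flags about 1 in 20 groups. In 9 of the 13 the library was replicate 1 and it was the highest. Among genes that rose, this gap share was 0.838 for LSU1, 0.837 for SULTR1;2, 0.879 for GSTU1, 0.922 for UGT74F2 and 0.963 for NRT1.8. Among genes that fell, it was 0.946 for DIN2, 0.924 for GDH2, 0.831 for TPS10 and 0.864 for CIPK23. Replicate 2 was the highest for CAF1a (0.876) and CBF2 (0.876) and the lowest for ARR4 (0.848). Replicate 3 was the highest for CYP71B26 (0.8293).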

How the results depend on the processing

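The count of genes called at 2 h against 0 h stayed within 1.5 times under every alternative run, from 3277 to 4435 when 1 library was left out, with 1907 to 2550 genes that rose. The genes that fell numbered 1445 with DESeq2 and between 1370 and 1955 with 1 library left out. At 2 h against 1 h, the calls ranged from 78 to 190, and at 1 h against 0 h from 1787 to 2764, with 1 library left out. Same-numbered libraries of 0 h and 2 h had correlations of deviations of -0.275, -0.130 and -0.036, so no pairing by number was seen. With so few pairs and a deviating replicate 1 of 0 h, these values cannot exclude pairing. The 1 h libraries were not compared in this way, so pairing of 1 h with 2 h was not tested. With a replicate block, 4735 genes were called at 2 h against 0 h (2487 up, 2248 down). At 2 h against 1 h, 456 were called with the block and 242 without it. Of the sugar starvation genes 12 then fell and 1 rose, against 6 and none without the block, and 6 iron genes rose against 3. Of 2694 values of 180 named genes under 18 alternatives, 2415 kept direction and call, 268 lost the call, 4 gained it and 7 changed sign, all in genes without a call. Of these, CASP1 ranged from -0.3034 to 0.183 with 1 library left out, EXPA8 from -0.060 to 0.303, SULTR2;1 from -0.133 to 0.279 and GSH2 from -0.030 to 0.073, and GSH2 was at -0.004817 with only the libraries compared. The cause of these changes was not tested.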
